A study of Rattus norvegicus with 20 samples.

Results

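The comparison described here set gastrocnemius muscle of rats given chemotherapy with a fish oil diet (CHEMO FO, 8 animals) against that of rats given neither (TUMOUR STD, 5 animals), which is 13 of the 20 samples in the series. All rats were female Fischer 344 rats carrying the Ward colorectal carcinoma, a transplanted rat tumour that had grown for 2 weeks before treatment, so both groups shared the tumour. CHEMO FO rats received 2 cycles of CPT-11 (irinotecan, a topoisomerase I inhibitor) followed the next day by 5-fluorouracil (50 mg/kg body weight, an inhibitor of thymidylate synthesis). Their diet was changed on the first day of chemotherapy to one containing the omega-3 fatty acids EPA and DHA, with muscle taken 7 days past the final treatment. TUMOUR STD rats ate the standard diet and had no chemotherapy. No source read here states separately on which day their muscle was taken. A difference in time spent with the tumour therefore cannot be told apart from treatment. The 7 CHEMO STD samples, from rats that had chemotherapy on the standard diet, were left out of the comparison, so the effects of the drugs and of the fish oil cannot be told apart in it. The members are all genes that passed the filter on low counts, 11525 of the 32495 rows with a gene name.

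The gastrocnemius is a mixed calf muscle in which fast, glycolytic fibres prevail, and most of its RNA comes from those fibres, with smaller amounts from vessel walls, fibroblasts, tendon, nerve and resident macrophages. Fibre genes can respond within hours to glucocorticoids, fasting and cytokines, which induce FOXO and C/EBP transcription factors and ubiquitin ligases of muscle protein breakdown. Muscle also holds its own circadian clock, in which BMAL1 and CLOCK drive the genes of their repressors PER, CRY and REV-ERB over the day. In bulk tissue, fewer cells of a type and less RNA per cell cannot be told apart, which applies to every vessel, matrix and nerve gene below.

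Libraries held between 5428544 and 10887041 counts in TUMOUR STD (median 6208043) and between 3041142 and 9130631 in CHEMO FO (median 4641563). Levels are given as CPM (read counts scaled to a common library size) after scaling by the trimmed mean of M-values, and differences as the log2 fold change of CHEMO FO over TUMOUR STD with its standard error (SE). Myh4, the myosin of the fastest fibres, was at a mean of 99050 CPM in TUMOUR STD. CHEMO FO replicate 18 stood apart, with a median correlation of 0.904 with its group against 0.951 to 0.968 for the other 7 CHEMO FO libraries. TUMOUR STD replicate 10 was the lowest of its group at 0.941 and carried skin and nerve transcripts described below. The main results below are given with and without these libraries, and the plot of list medians shows the medians of all lists with at least 5 tested genes both ways, several of which change sign.

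Fewer genes passed the thresholds as higher than as lower in CHEMO FO muscle. Of the 11525 genes, 368 (3.19%) had an unadjusted p under 0.05 in edgeR's quasi-likelihood test and at least a 1.5-fold difference, and these are the genes named as called. Among them 96 (0.833% of the genes tested) were higher in CHEMO FO and 272 (2.36%) were lower. The counts called in each list below are to be read beside these shares. No gene passed an adjusted p of 0.05 with edgeR (smallest adjusted p = 0.474), while 834 genes (7.24%) had an unadjusted p under 0.05 at any fold. DESeq2 placed 5 genes past the adjusted threshold, namely Ybx3, Cdr2l, Cox4i2, Armcx4 and a row without a standard symbol. Without CHEMO FO replicate 18, 259 genes (2.27%) were called, and without TUMOUR STD replicate 10, 242 (2.09%). Of the 368 genes, 97 were called whichever single library was left out, 23 of them higher and 74 lower. The median log2 fold change over all tested genes was 0.00, and 50.6% of them were above 0.

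**Figure D1:**
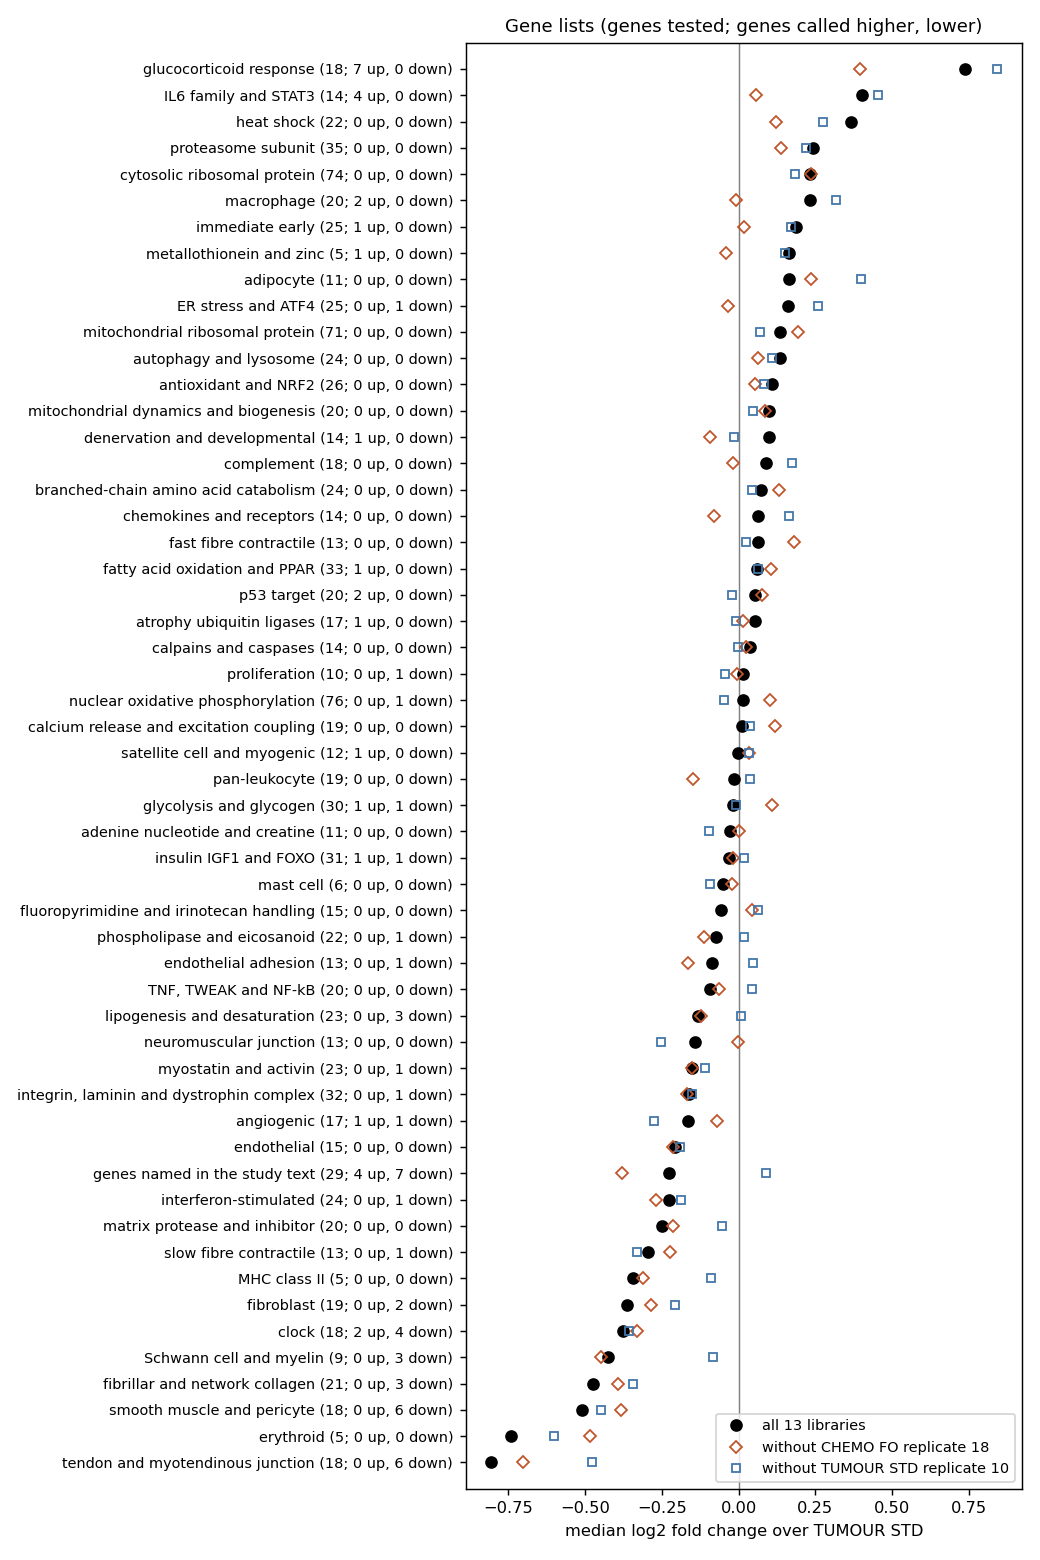
Median log2 fold change of CHEMO FO over TUMOUR STD (horizontal axis) for each gene list with at least 5 tested genes (vertical axis), with the number of genes tested and called beside each name; filled circles use all 13 libraries, open diamonds leave out CHEMO FO replicate 18 and open squares leave out TUMOUR STD replicate 10. The glucocorticoid response list lies furthest to the right (0.74) and the tendon and myotendinous junction list furthest to the left (-0.81), and these are 0.40 without CHEMO FO replicate 18 and -0.48 without TUMOUR STD replicate 10, respectively.

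Several of the genes with the smallest p among those lower in CHEMO FO had no overlapping library, and choosing genes by p favours this. Myh11 and Per3, which also had some of the smallest p, overlapped between the groups and are given below. Cdr2l, a relative of the onconeural antigen gene Cdr2, was at 6.98, 9.54, 12.7, 11.2 and 10.2 CPM in the 5 TUMOUR STD libraries and between 2.95 and 6.40 (median 4.60) in CHEMO FO. Every CHEMO FO library lay below every TUMOUR STD library, and the log2 fold change was -1.16 (SE 0.22). Cox4i2, the alternative isoform of subunit 4 of cytochrome c oxidase, was at 4.36, 4.92, 5.26, 3.91 and 6.67 CPM in TUMOUR STD and between 1.40 and 3.19 (median 2.19) in CHEMO FO, again with no overlap (log2 fold change -1.23, SE 0.24). Armcx4, an armadillo repeat gene, was at 9.24, 11.5, 9.96, 7.16 and 10.5 CPM against a range of 2.52 to 6.38 (median 4.99), also without overlap (-1.01, SE 0.21). Piezo2, a mechanically gated ion channel, fell from 17.1, 14.8, 16.9, 12.5 and 17.6 CPM to between 2.46 and 11.0 (median 8.16), with no overlap and a log2 fold change of -1.05 (SE 0.26). The guidance molecule Sema5a (-0.83, SE 0.21), the selenoprotein gene Selenom (-0.75, SE 0.19) and the cyclin gene Ccnd1 (-0.93, SE 0.25) likewise had no overlapping library, whereas Sema4c (-0.98, SE 0.24) and Mill1, an MHC class I-like gene (-1.38, SE 0.35), had 1 CHEMO FO library each within the TUMOUR STD range. In all, the levels of 33 genes (0.286% of those tested) did not overlap between the groups. Selenom dropped out without TUMOUR STD replicate 12, and the other genes named in this paragraph were called whichever library was left out.

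Among the genes higher in CHEMO FO, Ybx3, which encodes a cold shock domain protein that binds RNA and DNA, was abundant and separated the groups. It was at 687, 763, 883, 957 and 1126 CPM in TUMOUR STD and between 1195 and 1460 (median 1375) in CHEMO FO, a log2 fold change of 0.60 (SE 0.14). This is close to the 1.5-fold limit, and leaving out TUMOUR STD replicate 8, TUMOUR STD replicate 9 or CHEMO FO replicate 20 took it below that limit. Gadd45g, a growth arrest and DNA damage inducible gene, was at 8.37, 9.44, 3.73, 10.6 and 5.09 CPM in TUMOUR STD and between 9.62 and 74.8 (median 20.6) in CHEMO FO. Of the 8 CHEMO FO libraries, 7 lay above every TUMOUR STD library, with a log2 fold change of 2.12 (SE 0.49) that was 1.83 without CHEMO FO replicate 18. Arrdc2, an alpha-arrestin, was at 5.41, 11.1, 6.99, 3.25 and 10.3 CPM in TUMOUR STD and spanned 4.003 to 195 (median 26.6) in CHEMO FO. The CHEMO FO libraries were spread for Arrdc2: 5 lay above all TUMOUR STD libraries and the other 3 lay within their range, and the log2 fold change of 2.76 (SE 0.82) was 1.97 without replicate 18. Lrrc30, a leucine-rich repeat gene, was higher by 1.61 (SE 0.48), and the tRNA enzyme genes Thg1l (1.15, SE 0.31) and Ptrh2 (0.71, SE 0.19) and the zinc finger gene Zfp511 (0.75, SE 0.21) were also higher. These 4 genes, Gadd45g and Arrdc2 were called whichever library was left out, but Arrdc2 (1.28) was not called with voom.

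Genes of the circadian clock moved in both directions. Of 18 tested clock genes, 2 were called higher and 4 lower, and 9 had an unadjusted p under 0.05. Over all tested genes, 0.833% were called higher and 2.36% lower, and 7.24% had an unadjusted p under 0.05. The median log2 fold change was -0.38, and -0.33 without CHEMO FO replicate 18. Higher were Arntl, which encodes the activator BMAL1, and Nfil3, which encodes the repressor E4BP4. Lower were Per3, Dbp, Nr1d1 (REV-ERB alpha) and Bhlhe40 (DEC1), all of which BMAL1 and CLOCK are known to induce. To show the control sequences of the clock loop, the 250 bases before the RefSeq start of the 3 called clock genes that hold one of the searched motifs are printed here from the GRCr8 assembly. Capitals mark the E-box CACGTG, to which BMAL1 and CLOCK bind, or AGGTCA, the core of the element bound by ROR and REV-ERB, which was searched on both strands.

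Arntl (RefSeq Bmal1), chr1:176766078-176766327, plus strand, AGGTCA in capitals: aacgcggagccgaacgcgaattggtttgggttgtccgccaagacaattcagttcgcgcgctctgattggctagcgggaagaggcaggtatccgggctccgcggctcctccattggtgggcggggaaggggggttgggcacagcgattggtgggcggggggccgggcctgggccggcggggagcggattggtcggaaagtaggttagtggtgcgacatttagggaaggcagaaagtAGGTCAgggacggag
Nr1d1, at 1 of its 2 RefSeq starts, chr10:84229455-84229704, minus strand, CACGTG in capitals: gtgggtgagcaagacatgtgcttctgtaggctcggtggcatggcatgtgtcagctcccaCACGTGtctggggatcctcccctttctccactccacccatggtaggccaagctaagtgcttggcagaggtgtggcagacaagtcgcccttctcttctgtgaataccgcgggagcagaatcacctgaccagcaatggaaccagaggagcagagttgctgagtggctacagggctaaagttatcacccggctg
Bhlhe40, chr4:143174200-143174449, plus strand, CACGTG in capitals: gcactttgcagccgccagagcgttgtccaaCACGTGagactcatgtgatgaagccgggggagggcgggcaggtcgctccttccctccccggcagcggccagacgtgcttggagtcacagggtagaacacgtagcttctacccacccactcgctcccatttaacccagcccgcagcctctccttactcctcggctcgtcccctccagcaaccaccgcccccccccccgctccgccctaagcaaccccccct

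The E-box is its own reverse complement and stood in 5.59% of all 33469 RefSeq promoter windows of this length, and in 5 of the 16 tested clock genes that had a window. AGGTCA or its reverse complement stood in 14.1% of all windows and in 2 of those 16 genes. The windows of Per3, Dbp and Nfil3 held neither run of letters.

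Arntl was at 12.0, 14.7, 21.2, 40.2 and 15.3 CPM in TUMOUR STD and between 15.8 and 58.1 (median 46.2) in CHEMO FO. Of the CHEMO FO libraries, 6 of 8 lay above every TUMOUR STD library, and the log2 fold change was 1.07 (SE 0.30) with all libraries and 1.08 without CHEMO FO replicate 18. Nfil3 was at 15.3, 10.4, 17.9, 31.2 and 14.7 CPM against 12.7 to 144 (median 32.8), a log2 fold change of 1.43 (SE 0.45) that was 0.94 without replicate 18, its highest library. Per3, a clock gene of the period family, was at 77.6, 67.9, 61.5, 43.3 and 58.1 CPM in TUMOUR STD against 16.7 to 57.0 (median 28.6) in CHEMO FO. For Per3, 7 of 8 CHEMO FO libraries lay below every TUMOUR STD library (log2 fold change -0.97, SE 0.23). Dbp, an output gene of the clock named after its values were seen, was at 88.8, 77.0, 78.0, 30.6 and 136 CPM against 10.4 to 102 (median 24.1), a log2 fold change of -1.32 (SE 0.45). The 4 genes Arntl, Nfil3, Per3 and Dbp were called whichever library was left out.

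The same libraries were the exceptions for several of these genes. TUMOUR STD replicate 11 had the highest Arntl and Nfil3 and the lowest Per3, Dbp, Nr1d1 and Bhlhe40 of its group, and CHEMO FO replicate 14 had the lowest Arntl and Nfil3 and the highest Per3, Dbp, Nr1d1 and Bhlhe40 of its group. Nr1d1 was at 127, 223, 264, 118 and 238 CPM in TUMOUR STD and between 46.8 and 192 (median 104) in CHEMO FO, so that the groups overlapped (log2 fold change -0.80, SE 0.32). Its call was lost without TUMOUR STD replicate 9, 10 or 12. Bhlhe40 was at 192, 235, 222, 136 and 228 CPM against 58.2 to 186 (median 142), a log2 fold change of -0.65 (SE 0.22), and was no longer called without TUMOUR STD replicate 9 or CHEMO FO replicate 18. Clock (0.36, SE 0.21), Cry1 (0.39, SE 0.20) and Per1 (0.38, SE 0.35) were not called, and neither were Per2 (-0.46, SE 0.31) and Ciart (-0.80, SE 0.50). The hour of day at which each muscle was collected is not given in the sources used here, and its part in these values was not tested.

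**Figure D2:**
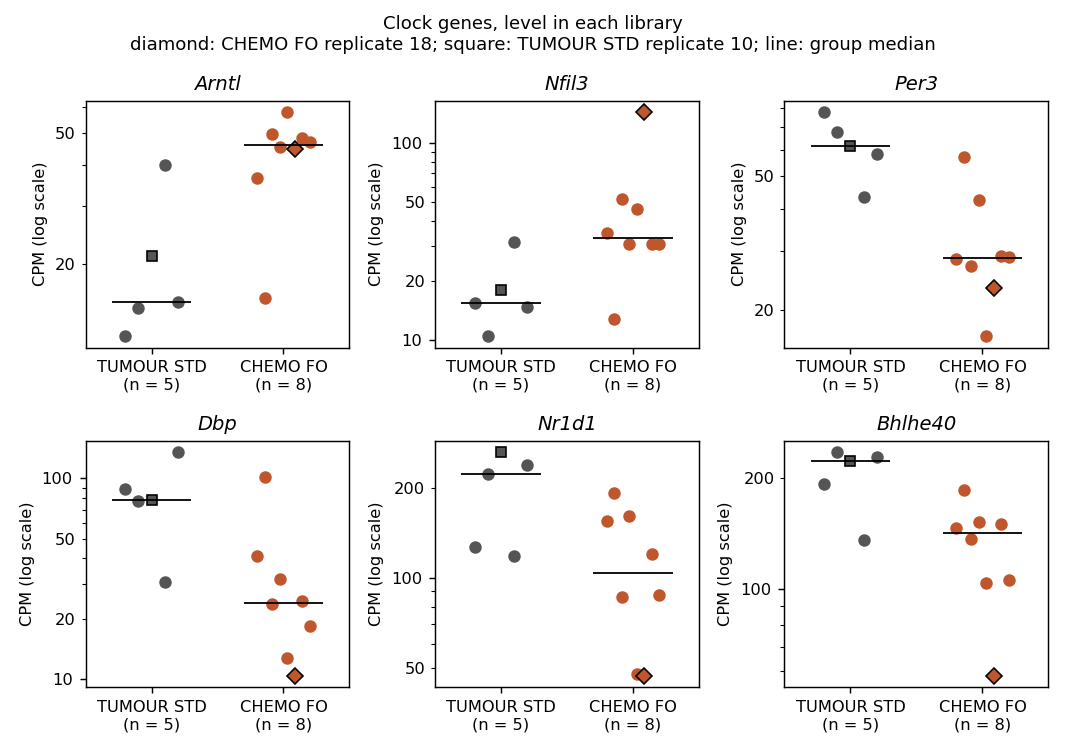
Level of 6 clock genes (CPM, log axis) in each of the 5 TUMOUR STD and 8 CHEMO FO libraries, with lines at the group medians; the diamond is CHEMO FO replicate 18 and the square is TUMOUR STD replicate 10. The median of Arntl is 15.3 against 46.2 CPM and that of Per3 is 61.5 against 28.6 CPM. CHEMO FO replicate 14 lies within the TUMOUR STD range in every panel, and other CHEMO FO libraries do so too for Arntl, Nfil3, Nr1d1 and Bhlhe40.

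In the list of genes induced by glucocorticoids most log2 fold changes were above 0, but the levels were raised mainly in some CHEMO FO animals. The summed level of the list was 1164 to 1816 CPM (median 1277) in TUMOUR STD and 1250 to 5780 CPM (median 1687) in CHEMO FO. CHEMO FO replicates 15, 17 and 18 lay above every TUMOUR STD library, at 2933, 2815 and 5780 CPM, and the rest lay within the TUMOUR STD range. Of 18 tested members 16 had a log2 fold change above 0, 7 were called higher and none lower, and the median log2 fold change was 0.74. Without CHEMO FO replicate 18 the median was 0.40, 16 of 18 were still above 0, and 2 were called. Zbtb16, a zinc finger repressor gene, was at 27.4, 40.3, 34.7, 33.5 and 30.5 CPM in TUMOUR STD and between 29.6 and 105 (median 60.2) in CHEMO FO. For Zbtb16, 5 of 8 CHEMO FO libraries lay above every TUMOUR STD library, and its log2 fold change was 0.85 (SE 0.27) with replicate 18 and 0.78 without it. Cebpd, a C/EBP transcription factor gene, was at 4.53, 6.59, 10.8, 10.4 and 14.2 CPM against 10.1 to 92.5 (median 15.8), a log2 fold change of 1.60 (SE 0.51) that was 0.99 without replicate 18. Zbtb16 and Cebpd were called whichever library was left out, but Zbtb16 (0.55) was not called with voom.

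The other 5 calls of this group rested on replicate 18. Mt2A, a metallothionein gene, was at 1.74, 0.787, 1.82, 1.30 and 5.62 CPM in TUMOUR STD and between 1.87 and 11.1 CPM in 7 CHEMO FO libraries, but at 729 CPM in replicate 18. Its log2 fold change was 5.49 (SE 1.74) with that library and 0.92 without it. Pdk4, the kinase that shuts pyruvate out of the citric acid cycle, was at 126, 133, 69.6, 24.6 and 110 CPM in TUMOUR STD and between 57.7 and 1118 (median 110) in CHEMO FO. The medians of Pdk4 were alike, and CHEMO FO replicates 17 and 18 lay at 1044 and 1118 CPM (log2 fold change 1.90, SE 0.77, and 1.36 without replicate 18), so the call was lost without either of them or without TUMOUR STD replicate 10 or 11. Tsc22d3 (0.75, SE 0.31), Cebpb (0.74, SE 0.31) and Errfi1 (0.78, SE 0.35), gave log2 fold changes of 0.37, 0.53 and 0.36 without replicate 18. Cebpb also dropped out without TUMOUR STD replicates 8, 9 or 11 or CHEMO FO replicate 17, Errfi1 without those 4 or without TUMOUR STD replicate 12 or CHEMO FO replicate 15, and Tsc22d3 without TUMOUR STD replicate 8. The receptor gene Nr3c1 did not pass the test (log2 fold change -0.01, SE 0.17).

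**Figure D3:**
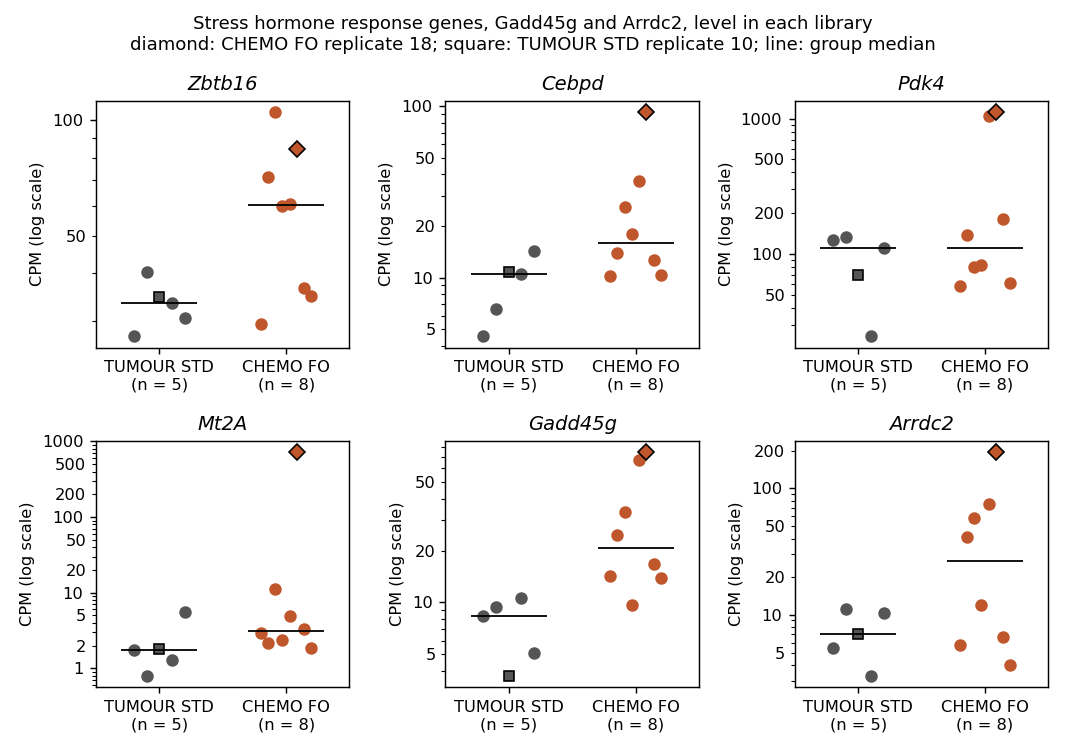
Level of 4 genes of the glucocorticoid response list and of Gadd45g and Arrdc2 (CPM, log axis) in each TUMOUR STD (n = 5) and CHEMO FO (n = 8) library, with lines at the group medians; the diamond is CHEMO FO replicate 18 and the square is TUMOUR STD replicate 10. Replicate 18 is the highest CHEMO FO library for Cebpd, Pdk4, Mt2A, Gadd45g and Arrdc2, and for Mt2A it lies at 729 CPM while the other 7 are at most 11.1 CPM.

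Some calls among growth arrest, muscle breakdown and cytokine signalling genes also depended on replicate 18, and others did not. All 4 members of the Gadd45 family had a log2 fold change above 0, and 2 were called: Gadd45g, given above, and Gadd45a, at 1.29 (SE 0.60) with replicate 18 and 0.22 without it. Cdkn1a, the p53 target that encodes the cell cycle inhibitor p21, was at 9.59, 10.7, 21.6, 13.3 and 36.1 CPM in TUMOUR STD and between 8.57 and 184 (median 21.0) in CHEMO FO. CHEMO FO replicates 15 and 18 lay above and replicate 19 below every TUMOUR STD library for Cdkn1a, and the rest overlapped (log2 fold change 1.38, SE 0.65, and 0.56 without replicate 18). Among 20 tested p53 targets only Cdkn1a and Gadd45a were called (median 0.05), and neither call held without replicate 18 or without TUMOUR STD replicate 8, 9 or 10. Cdkn1a also lost it without TUMOUR STD replicate 11 or CHEMO FO replicate 15, and Gadd45a without TUMOUR STD replicate 12. Fbxo32, the ubiquitin ligase atrogin-1, was at 259, 350, 172, 170 and 159 CPM against 169 to 1869 (median 309) in CHEMO FO, a log2 fold change of 1.27 (SE 0.52) that was 0.65 and not called without replicate 18, and not called without TUMOUR STD replicate 10, 11 or 12. It was the 1 gene called among 17 tested atrophy ligases, whose median was 0.05. Trim63, the ligase MuRF1, was at 1.27 (SE 0.61) and did not pass, and was at 0.15 without replicate 18.

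In the IL6 and STAT3 list 11 of 14 tested genes had a log2 fold change above 0 and 4 were called higher, namely Cebpd, Pim1 (0.62, SE 0.26), Cebpb and Socs3 (0.72, SE 0.31). The median was 0.40, and 0.06 with 2 genes called without replicate 18. Cebpd and Pim1 (0.59) were those still called. Pim1 was no longer called without TUMOUR STD replicate 8 or 10 or CHEMO FO replicate 16, 17 or 19, and Socs3 without TUMOUR STD replicate 8 or 9 or CHEMO FO replicate 18. Cish, a feedback inhibitor of growth hormone and cytokine receptors, moved differently. It was at 3.49, 10.6, 21.2, 3.58 and 11.9 CPM in TUMOUR STD and between 5.37 and 65.5 (median 33.5) in CHEMO FO, where replicate 18 was the lowest library. For Cish, 5 of 8 CHEMO FO libraries lay above every TUMOUR STD library, and the log2 fold change of 1.67 (SE 0.53) was called whichever library was left out. In the same insulin, IGF1 and FOXO list of 31 tested genes (median -0.03), the growth factor gene Igf2 was lower (-0.64, SE 0.23), a call lost without TUMOUR STD replicate 9 or 10 or CHEMO FO replicate 18. Myc, a growth transcription factor gene of the immediate early list (1 of 25 called, median 0.19), was higher by 1.31 (SE 0.48) and by 0.69 without replicate 18, and stayed called whichever library was left out. Myf6, the myogenic factor MRF4 and the 1 gene called of 12 in the myogenic list, was at 82.7, 84.7, 74.5, 82.0 and 71.4 CPM against 85.2 to 555 (median 104) in CHEMO FO. Every CHEMO FO library lay above every TUMOUR STD library for Myf6, yet its log2 fold change of 1.08 (SE 0.41) was 0.50 and not called without replicate 18. The activin subunit gene Inhba, the 1 gene called of 23 in the myostatin and activin list, was lower by a log2 fold change of -0.80 (SE 0.37), and was not called in 7 of the 13 fits that each omit 1 library.

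Of 18 tested smooth muscle and pericyte genes, which mark the walls of arteries and capillaries, 16 had a log2 fold change below 0, 6 were called lower and none higher, and the median was -0.51. Myh11, the smooth muscle myosin heavy chain, was at 126, 109, 102, 73.2 and 63.7 CPM in TUMOUR STD and between 35.3 and 79.2 (median 48.1) in CHEMO FO. For Myh11, 7 of 8 CHEMO FO libraries lay below every TUMOUR STD library, with a log2 fold change of -0.91 (SE 0.20) and of -0.84 without replicate 18. Acta2, smooth muscle alpha-actin, was at 21.8, 36.5, 27.0, 13.5 and 18.4 CPM against 7.01 to 16.9 (median 13.7), and the groups overlapped (-0.89, SE 0.23). Both were called whichever library was left out. The myosin light chain kinase gene Mylk (-0.69, SE 0.20) dropped out without TUMOUR STD replicate 10, and the actin-binding transgelin gene Tagln (-0.62, SE 0.24) lost it without TUMOUR STD replicate 8 or CHEMO FO replicate 14, 15 or 18. Myl9 (-0.62, SE 0.28) and Itga8 (-0.65, SE 0.27) complete the count. Without CHEMO FO replicate 18 or without TUMOUR STD replicate 10, 3 genes were called. Des (0.10, SE 0.23), Synpo2 (-0.04, SE 0.29) and Lmod1 (0.01, SE 0.31) were not called. The summed level of the list, to which Des adds most, was 4544 to 8527 CPM (median 4889) in TUMOUR STD and 3986 to 7891 CPM (median 6209) in CHEMO FO.

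Of 15 tested endothelial genes, 14 had a log2 fold change below 0 and none was called, with a median of -0.21 and a summed level of 393 to 553 CPM in TUMOUR STD against 350 to 447 CPM in CHEMO FO. Flt1, the most abundant member and a VEGF receptor gene, was at -0.10 (SE 0.15). In the angiogenic list of 17 genes (median -0.16), Aplnr, the apelin receptor gene of sprouting vessels, was lower (-0.76, SE 0.26, called whichever library was left out). Pgf, a placental growth factor gene of low level, was higher (1.02, SE 0.39), a call lost without CHEMO FO replicate 18. Prox1, the lymphatic endothelial factor gene, was the 1 gene called of 13 in the endothelial adhesion list, at -0.64 (SE 0.23), and was no longer called without TUMOUR STD replicate 9 or CHEMO FO replicate 17 or 18.

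Matrix and tendon genes were lower in CHEMO FO as well, and their values were set in part by TUMOUR STD replicates 10 and 12. The tendon and myotendinous junction list had 17 of 18 tested genes below 0, 6 called lower and none higher, and a median of -0.81, which was -0.48 with 2 called without TUMOUR STD replicate 10, and -0.61 without TUMOUR STD replicate 12. The collagen list had 19 of 21 below 0, 3 called lower and a median of -0.47. Without TUMOUR STD replicate 10 that median was -0.34 with 1 called. The fibroblast list had all 19 tested genes below 0, 2 called lower and a median of -0.36, against -0.21 and no call without TUMOUR STD replicate 10, when 2 genes were above 0. Its summed level was 3370 to 7423 CPM (median 3597) in TUMOUR STD and 2428 to 4782 CPM (median 3734) in CHEMO FO, and the highest were TUMOUR STD replicates 10 and 12. Col1a1, the main chain of type I collagen, was at 1417, 3598, 9333, 3023 and 10290 CPM in TUMOUR STD and between 202 and 4910 (median 1548) in CHEMO FO. TUMOUR STD replicates 10 and 12 lay above every other library and the other 3 lay within the CHEMO FO range (log2 fold change -1.37, SE 0.56), and the call was lost without either replicate 10 or replicate 12.

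Tnmd, tenomodulin of tendon cells, was at 15.7, 8.26, 32.5, 21.0 and 38.1 CPM in TUMOUR STD against 3.78 to 19.1 (median 11.2), so the groups overlapped (-1.07, SE 0.38). Tnc, the matrix glycoprotein tenascin C, was at 39.9, 36.4, 134, 42.3 and 144 CPM against 8.84 to 62.2 (median 34.0), a log2 fold change of -1.25 (SE 0.44). Both calls were lost without TUMOUR STD replicate 12. Fmod, which encodes the collagen-binding fibromodulin, was at -0.93 (SE 0.34) and dropped out without TUMOUR STD replicate 10, while Col12a1 (-0.80, SE 0.29) and the matricellular protein gene Sparc (-0.82, SE 0.34) lost theirs without either replicate 10 or 12. Col11a1, a minor fibrillar collagen gene, was called whichever library was left out, at 46.2, 57.9, 120, 49.3 and 140 CPM in TUMOUR STD against 8.47 to 62.5 (median 36.1) in CHEMO FO (-1.24, SE 0.42). The crosslinking enzyme gene Loxl2 (-0.76, SE 0.34) lost its call without any of 6 libraries, TUMOUR STD replicates 10 and 12 among them. In the integrin, laminin and dystrophin list 24 of 32 genes were below 0 (median -0.16), and the collagen receptor gene Itga2 was the 1 gene called (-1.18, SE 0.45), a call lost without TUMOUR STD replicate 12. Of 20 tested matrix proteases and inhibitors none was called, with a median of -0.25, or of -0.06 without TUMOUR STD replicate 10, and Mmp2 was at -0.34 (SE 0.23).

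**Figure D4:**
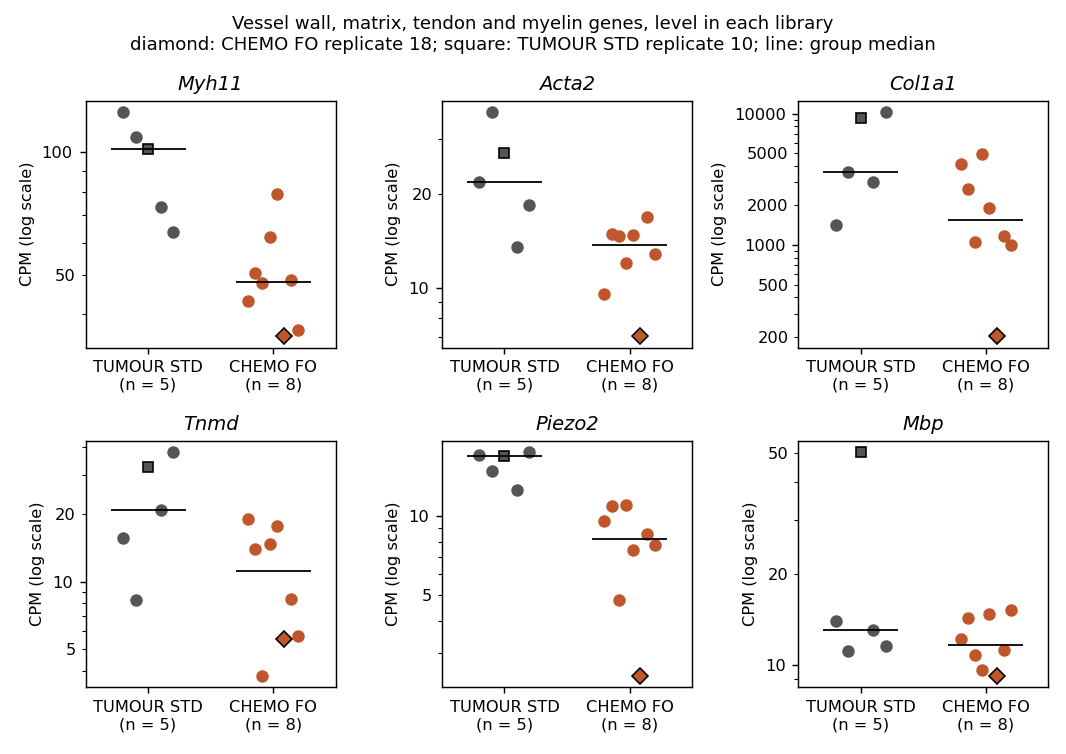
Level of vessel wall (Myh11, Acta2), matrix (Col1a1), tendon (Tnmd), mechanosensor (Piezo2) and myelin (Mbp) genes (CPM, log axis) in each TUMOUR STD (n = 5) and CHEMO FO (n = 8) library, with lines at the group medians; the square is TUMOUR STD replicate 10 and the diamond is CHEMO FO replicate 18. Piezo2 does not overlap between the groups, Col1a1 spans 1417 to 10290 CPM within TUMOUR STD, and the square lies above all other libraries for Mbp.

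TUMOUR STD replicate 10 also set the nerve and skin genes. Mbp, myelin basic protein, was at 13.9, 11.1, 50.4, 13.0 and 11.6 CPM in TUMOUR STD and between 9.20 and 15.2 CPM (median 11.7) in CHEMO FO. Apart from replicate 10 the groups overlapped, and the log2 fold change of Mbp was -0.73 (SE 0.32) with replicate 10 and -0.02 without it. For Prx, periaxin of myelinating Schwann cells, the values were -0.83 (SE 0.37) and -0.13. Mbp was also not called without CHEMO FO replicate 15, 16, 18 or 19, nor Prx without CHEMO FO replicate 13, 15, 16 or 18. Both are among the 3 genes called of 9 tested Schwann cell genes (median -0.43), of which none was called without TUMOUR STD replicate 10, when the median was -0.08. Dsp, the desmosomal gene desmoplakin, was at 174 CPM in TUMOUR STD replicate 10 and 34.0 CPM in CHEMO FO replicate 16 and at most 5.23 CPM elsewhere, and its log2 fold change of -2.65 (SE 0.96) was 0.63 without TUMOUR STD replicate 10. The summed level of 20 keratinocyte genes was 714 CPM in TUMOUR STD replicate 10 and 159 CPM in CHEMO FO replicate 16, against medians of 17.6 and 15.7 CPM in the groups. The part of skin or nerve in the matrix values of these libraries was not tested.

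Fibre genes changed little. Of 13 tested slow fibre genes 12 had a log2 fold change below 0, with a median of -0.29, and Myh7, the slow myosin heavy chain, was the 1 gene called. It was at 6488, 7302, 9469, 3436 and 7088 CPM in TUMOUR STD and between 2316 and 7293 (median 3781) in CHEMO FO, so that the groups overlapped. The log2 fold change of Myh7 was -0.61 (SE 0.28), close to the fold limit, and the call was lost when any of 10 of the 13 libraries was left out. Of 13 tested fast fibre genes 9 were above 0 and none was called (median 0.06), and Myh4 was at -0.10 (SE 0.18). Without CHEMO FO replicate 18, 12 were above 0 and none was called (median 0.18), and Myh4 was at -0.02. The summed level of the fast fibre list was 177700 to 221600 CPM in TUMOUR STD. It was 116400 CPM in CHEMO FO replicate 18, against a CHEMO FO median of 202300 CPM. The calcium release list (19 tested, median 0.01, with Ryr1 at -0.07, SE 0.22) and the neuromuscular junction list (13 tested, median -0.14, with Utrn at -0.35, SE 0.15) had no called gene. In the denervation and developmental list (14 tested, median 0.10, and -0.09 without CHEMO FO replicate 18) Gadd45a was the only call, and it is given above with its dependence on replicate 18.

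Among 76 tested nuclear oxidative phosphorylation genes Cox4i2 was the 1 gene called, and 43 were above 0 (median 0.02). That number was 68 (median 0.10) without CHEMO FO replicate 18 and 24 (median -0.05) without TUMOUR STD replicate 10. In glycolysis and glycogen metabolism (30 tested, median -0.02) Pfkfb3, the enzyme that makes the activator fructose 2,6-bisphosphate, was at 369, 499, 468, 205 and 488 CPM in TUMOUR STD and between 152 and 423 (median 235) in CHEMO FO. The groups overlapped through TUMOUR STD replicates 8 and 11, and the log2 fold change of -0.68 (SE 0.23) was called whichever library was left out, though not with voom (-0.51). Ppp1r3c, a glycogen-targeting phosphatase subunit gene, was higher (0.76, SE 0.27), a call lost without CHEMO FO replicate 15. In fatty acid oxidation (33 tested, median 0.06) only Pdk4 was called. Branched-chain amino acid catabolism (24 tested, median 0.07, Acat1 0.04, SE 0.15), mitochondrial dynamics (20 tested, median 0.10, Pink1 0.15, SE 0.15) and adenine nucleotide and creatine metabolism (11 tested, median -0.03, Ckm 0.11, SE 0.24) had no called gene. In the mitochondrial one-carbon and ATF4 branch, the folate enzyme gene Aldh1l2 was the 1 gene called of 25 in the ER stress and ATF4 list (-1.13, SE 0.38, called whichever library was left out, list median 0.16, and -0.03 without CHEMO FO replicate 18).

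Of 23 tested lipogenic genes 15 were below 0, 3 were called lower and none higher, and the median was -0.13. Sqle, squalene epoxidase of sterol synthesis, was at 3.14, 2.36, 7.37, 6.67 and 4.39 CPM in TUMOUR STD and between 1.26 and 4.29 (median 2.51) in CHEMO FO (-0.89, SE 0.34). Fads2, the delta-6 desaturase of long-chain polyunsaturated fatty acid synthesis, was at 6.80, 9.54, 16.3, 12.9 and 18.8 CPM against 4.46 to 12.7 (median 7.42), a log2 fold change of -0.70 (SE 0.27). Scd2, a stearoyl-CoA desaturase, was at 47.4, 53.6, 139, 89.8 and 78.4 CPM against 18.1 to 79.0 (median 49.2), at -0.72 (SE 0.31). The groups overlapped for all 3, and none of the 3 was called without TUMOUR STD replicate 10, when the list median was 0.01. In that fit 1 other gene of the list was called higher and none lower. Without CHEMO FO replicate 18, 1 gene of the list was called higher and 2 lower. Sqle also was no longer called without TUMOUR STD replicate 11, Fads2 without TUMOUR STD replicate 12, and Scd2 without TUMOUR STD replicate 11 or CHEMO FO replicate 15, 17 or 18. Fasn, fatty acid synthase, ranged from 14.2 to 542 CPM in CHEMO FO and from 33.2 to 126 CPM in TUMOUR STD (0.70, SE 0.75) and did not pass the test, and Scd ranged from 0.638 to 748 CPM in CHEMO FO (0.37, SE 1.20). In the phospholipase and eicosanoid list (22 tested, median -0.07) the epoxide hydrolase gene Ephx1 was the 1 gene called (-0.64, SE 0.21), and dropped out without TUMOUR STD replicate 10 or 12 or CHEMO FO replicate 18. Adipocyte genes had no call (11 tested, median 0.16, and 0.40 without TUMOUR STD replicate 10), and Plin4 was at 0.28 (SE 0.15).

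Leukocyte genes were low and mostly not called. Only 2 of 17 T cell genes, 1 of 12 B cell genes, 1 of 11 cytotoxic cell genes and none of 14 neutrophil genes passed the filter. Cd4 was at -0.28 (SE 0.17), Cd74 at -0.14 (SE 0.20) and Cst7 at 0.49 (SE 0.29). Cst7, the 1 cytotoxic cell gene tested, was called higher without CHEMO FO replicate 18 (0.60). Cd74, the 1 B cell gene tested, is also a member of the MHC class II list, so its value does not speak for B cells alone. Of 20 tested macrophage genes 15 were above 0 and 2 were called higher (median 0.23, and -0.01 with 1 called without CHEMO FO replicate 18), and their summed level was 280 to 490 CPM in TUMOUR STD and 304 to 1060 CPM in CHEMO FO. Mnda, a nuclear gene of myeloid cells, was at 2.96, 1.67, 1.92, 1.30 and 1.23 CPM in TUMOUR STD and between 1.37 and 8.56 (median 3.08) in CHEMO FO, a log2 fold change of 1.10 (SE 0.38) that was called whichever library was left out and was 0.79 without replicate 18. Cd163, the scavenger receptor of haemoglobin on resident macrophages, was at 28.6, 26.6, 36.0, 23.3 and 27.2 CPM against 20.6 to 273 (median 36.5), and the groups overlapped (1.23, SE 0.54). It was at 0.35 and not called without replicate 18, and not called without TUMOUR STD replicate 8, 9, 11 or 12.

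Interferon-stimulated genes had 20 of 24 tested members below 0 and a median of -0.23, and the antiviral GTPase gene Mx2 was the 1 gene called (-0.86, SE 0.30), a call lost without TUMOUR STD replicate 8. All 5 tested MHC class II genes were below 0 with no call (median -0.35, and -0.09 without TUMOUR STD replicate 10). Complement (18 tested, median 0.09, and 0.17 with 2 called higher without TUMOUR STD replicate 10, Masp1 0.25, SE 0.19), chemokines (14 tested, median 0.06, and -0.08 without CHEMO FO replicate 18, Ackr3 -0.01, SE 0.15), the TNF, TWEAK and NF-kB list (20 tested, median -0.09, and 0.04 without TUMOUR STD replicate 10, Nfkb1 -0.24, SE 0.12), mast cell genes (6 tested, median -0.05, Kit -0.46, SE 0.22) and pan-leukocyte genes (19 tested, median -0.02, Lcp1 -0.02, SE 0.27) had none called. Of 5 tested erythroid genes all were below 0 and none was called (median -0.74), with Hbb at -0.80 (SE 0.72). Their summed level was 234 to 595 CPM in TUMOUR STD, against 16.9 to 155 CPM in 6 CHEMO FO libraries and 660 and 893 CPM in replicates 16 and 17. Without CHEMO FO replicate 17 the median was -1.46 and 3 genes were called lower, Hbb among them, and voom also called 3.

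Of 74 tested cytosolic ribosomal protein genes 72 had a log2 fold change above 0, and their median was 0.23, but none reached 1.5-fold with p under 0.05. An unadjusted p under 0.05 was reached by 20 of them (27.0%, against 7.24% of all genes), by 21 without CHEMO FO replicate 18 and by 6 without TUMOUR STD replicate 10. Their summed level was 12680 to 16480 CPM in TUMOUR STD and 15410 to 19260 CPM in CHEMO FO, so that the ranges overlapped. Rps3, singled out after its values were seen, was at 223, 194, 210, 232 and 239 CPM in TUMOUR STD and between 256 and 361 (median 284) in CHEMO FO, with no overlap and a log2 fold change of 0.41 (SE 0.12). Rplp0, the most abundant member, was at 0.10 (SE 0.14). Ribosomal protein genes have many near-identical pseudogenes, and how shared reads were counted limits the values of single members.

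Of 35 proteasome subunit genes 34 were above 0 and none was called (median 0.24, and 0.14 without CHEMO FO replicate 18), with Psmd2 at 0.08 (SE 0.15). Mitochondrial ribosomal protein genes had 62 of 71 above 0 with no call (median 0.14, Mrpl15 0.19, SE 0.14). Heat shock genes had 19 of 22 above 0 with no call, a median of 0.36 that was 0.12 without replicate 18, and Hsp90ab1 at 0.23 (SE 0.16). Rheb, the GTPase that activates mTORC1, was singled out after its values were seen, at 35.4, 29.0, 33.6, 37.3 and 32.3 CPM in TUMOUR STD and between 41.0 and 48.1 (median 43.0) in CHEMO FO. Its groups did not overlap, but its log2 fold change of 0.38 (SE 0.11) was below the fold limit. No gene was called in the autophagy and lysosome (24 tested, median 0.13), calpain and caspase (14 tested, median 0.04, Capn3 -0.09, SE 0.14), antioxidant (26 tested, median 0.11, Sod2 0.02, SE 0.17) or fluoropyrimidine and irinotecan handling lists (15 tested, median -0.06, Abcc1 -0.28, SE 0.15). The metallothionein and zinc list (5 tested, median 0.17) had Mt2A as its 1 call, and the proliferation list (10 tested, median 0.02) had Ccnd1.

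**Figure D5:**
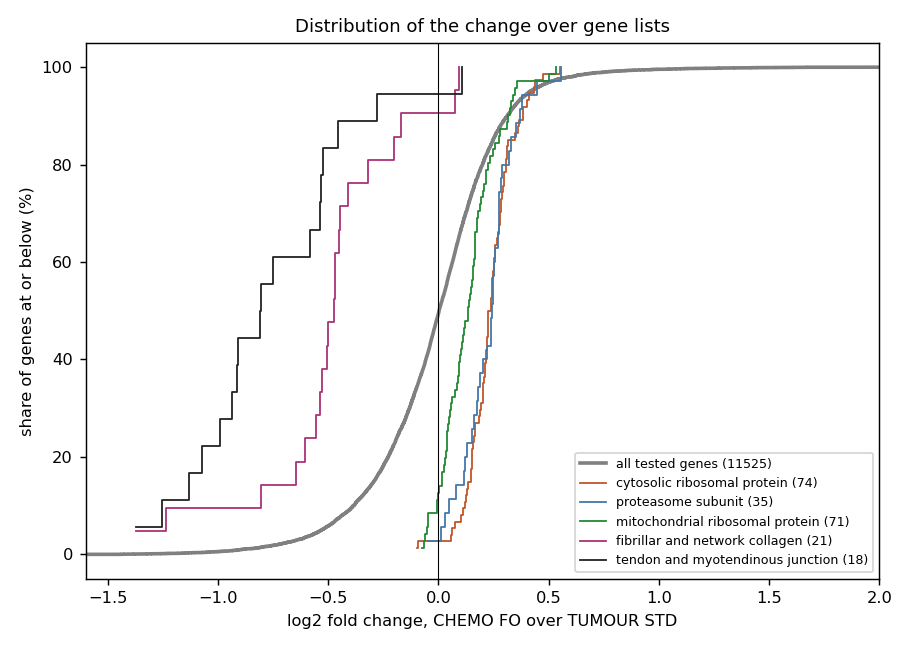
Share of genes (vertical axis, percent) at or below each log2 fold change of CHEMO FO over TUMOUR STD (horizontal axis), for all 11525 tested genes in grey and for 5 gene lists in colour. The curves of cytosolic ribosomal protein (median 0.23) and proteasome genes (0.24) are narrow and lie to the right of 0, while collagen (-0.47) and tendon genes (-0.81) lie to the left of the curve for all genes.

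A list of 41 genes was taken from the study's text, where they were chosen by the authors on comparisons that use these same libraries, so their direction here is not independent evidence. Of these, 29 passed the filter, 4 were called higher (Gadd45g, Cish, Mnda and Cdkn1a) and 7 lower (Myh11, Per3, Bhlhe40, Nr1d1, Itga2, Myh7 and Col12a1), and the median was -0.23. Several of the rest were carried by CHEMO FO replicate 18. Pla2g2a, a secreted phospholipase gene, was at 52.5 CPM in replicate 18 and at most 4.46 CPM in the other CHEMO FO libraries, with a log2 fold change of 1.18 (SE 0.88) that was -0.64 without it. Selp (1.22, SE 0.63), Sdc4 (0.77, SE 0.43) and C1qb (0.61, SE 0.31) were at 0.13, 0.13 and 0.26 without that library, and C1qc went from 0.45 (SE 0.24) to 0.24. With all libraries none of these 5 genes was called. Without TUMOUR STD replicate 10, Pla2g2a (2.24) and C1qb (0.74) were called higher and the counts for the whole list were 6 higher and 4 lower with a median of 0.09, against 3 higher, 5 lower and a median of -0.38 without CHEMO FO replicate 18. DESeq2 on the 13 libraries put Pla2g2a at -0.56. Fos (0.19, SE 0.28), Rac2 (0.03, SE 0.32), Col7a1 (0.07, SE 0.36), Ccl21 (-0.26, SE 0.35), Prkcb (-0.23, SE 0.30), Col27a1 (-0.51, SE 0.32), Itgal (-0.53, SE 0.46), Ptk2b (-0.47, SE 0.28), Apold1 (0.71, SE 0.43), Myh6 (-0.47, SE 0.24) and Col22a1 (-0.53, SE 0.26) were not called. Wipf1, a regulator of actin assembly, had an unadjusted p under 0.05 below the fold limit (-0.55, SE 0.22). The other 12 genes were below the filter, and of these C3 reached 69.0 CPM in CHEMO FO replicate 18 and at most 1.40 CPM in the other 12 libraries, and Nr4a3 reached 8.65 CPM there against at most 3.51 CPM elsewhere. In the fit without a filter on low counts, C3 (3.44, SE 1.12) and Nr4a3 (1.86, SE 0.56) were called higher, and Cd22 (-1.49, SE 0.50), a B cell receptor gene, and Cldn19 (-1.67, SE 0.76), a claudin gene of myelinating Schwann cells, were called lower. Cd22 was at most 3.73 CPM and Cldn19 at most 2.20 CPM in any library.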

How the data were processed

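Gastrocnemius RNA of 20 samples had been sequenced from stranded total RNA libraries depleted of ribosomal RNA (TruSeq with Ribo-Zero, NextSeq 500, paired ends). The authors called bases with CASAVA 1.9, trimmed adapters with Trim Galore 0.4.1, inspected reads with FastQC 0.11.4, aligned them to the Rnor 6 build with TopHat2 2.0.10 and Bowtie2, and deposited raw counts per gene for each sample. Whether counting used strand, and how reads shared by near-identical or overlapping genes were counted, is not given in the sources used here. The 388 of 32883 rows with no gene name, which held between 0.11 and 0.272% of a library's counts, were left out. The levels and the main fit given here use the 13 libraries of CHEMO FO and TUMOUR STD. Among the fits, the 7 CHEMO STD libraries entered alternatives only.

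Genes were filtered with filterByExpr (edgeR 4.0.16, R 4.3.3, minimum count 10), scaled by the trimmed mean of M-values and compared with edgeR's quasi-likelihood test, 2-sided, with Benjamini-Hochberg adjustment over all tested genes. The SE was the absolute log2 fold change divided by the square root of F. Called genes had p under 0.05 before adjustment and differed by at least 1.5-fold. The labels number each sample and do not name rats. CHEMO FO and TUMOUR STD samples were taken as separate rats, as the study counts them, and p-values measure the spread between these samples. No pair of libraries within TUMOUR STD or within CHEMO FO agreed within sampling noise (chi-square per gene 19.3 to 255 over 38 pairs). The deposited columns of CHEMO STD replicates 1 and 2 have names with a shared stem, and they were summed in 1 alternative fit; whether they come from 1 rat was not tested. The functions were tested on simulated data.

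The comparison, gene lists and alternatives were chosen with earlier results of these data known. Genes named were the 10 called genes with the smallest p in each direction, up to 4 called members of each list by p, the genes of the study's text, and the most abundant member of lists with no call. Dbp, Rps3, Rheb and members given to complete or contrast with a list's count were named after their values were seen. Single genes that are not reported here still count in their lists. Promoter windows came from RefSeq on GRCr8, not the build of the counts. Alternatives were DESeq2 1.42.0, limma 3.58.1 voom, other scalings, filters and fold limits, fits with CHEMO STD, and each library left out. Python 3.11.15 with pandas 2.3.3, numpy 2.4.6 and matplotlib 3.10.9 made tables and plots.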

Additional observations from a re-analysis of the deposited data

Results flagged for a closer look

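Among 108 tested genes named by the rule, each group's highest or lowest library was set against the spread of its group by Dixon's criterion, and 30 of 216 groups had a library standing apart. The criterion marks about 5% of groups by chance only where values are normally distributed. It was applied here to CPM without a log scale, and many of the genes had been chosen by p in the same libraries. The 5% rate is therefore no yardstick for the 30 marks. The genes are also not independent, since 20 of the 30 marks fall on CHEMO FO replicate 18. No part of any cause in these values was tested.

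In CHEMO FO replicate 18, stress and growth arrest genes stood above the other 7 libraries: Arrdc2 was at 195 CPM (others up to 74.8), Nfil3 at 144, Cebpd at 92.5, Myc at 28.4, Gadd45a at 77.6 (others up to 11.4), Cdkn1a at 184 and Mt2A at 729 CPM. Muscle genes there were Myf6 at 555.0, Fbxo32 at 1869 (others up to 648.6) and, below the others, the protease gene Capn3 at 151 CPM. The heat shock gene Hsp90ab1 was at 3209 CPM there, and the complement gene Masp1 lay below the others at 91.9 CPM. Immune and vascular genes there were Mnda at 8.56, Cd163 at 273, Socs3 at 10.3, C1qb at 81.2, C1qc at 88.6, Pla2g2a at 52.5, Sdc4 at 153 and Selp at 22.9 CPM.

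In TUMOUR STD replicate 10, Mbp was at 50.4, Prx at 40.1, Dsp at 174, Col7a1 at 8.71 and Pla2g2a at 12.2 CPM. Single marks fell on Inhba at 4.88 CPM in TUMOUR STD replicate 8, Mt2A at 5.62 CPM in TUMOUR STD replicate 12, Aplnr at 10.6 CPM in TUMOUR STD replicate 11, Ppp1r3c at 1843 CPM in CHEMO FO replicate 15 and Dsp at 34.0 CPM in CHEMO FO replicate 16.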

How the results depend on the processing

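The count of 368 called genes was 1005 of 18679 without a filter on low counts, 87 at a 2-fold limit and 834 with no fold limit, as those settings test or admit different numbers of genes. Leaving out 1 library gave between 242 (TUMOUR STD replicate 10) and 526 (TUMOUR STD replicate 11) called genes. Scaling by RLE factors gave 374, library totals 382, a filter at a mean of 10 counts 387, voom 301 (173 of them among the 368) and DESeq2 on the 13 libraries 497. The share of calls higher in CHEMO FO was 26.1%, and 22.3 to 30.5% over the scalings. DESeq2 placed 5 genes past the adjusted threshold with 13 libraries and 11 with all 20, where edgeR and voom placed none; the cause was not tested. Dsp turned from -2.65 to 0.63 without TUMOUR STD replicate 10, and over the fits that each omit 1 library ranged from -3.68 (without CHEMO FO replicate 16) to 0.63. Over the named genes and alternatives, 2215 values kept direction and side of the threshold, 178 no longer passed, 26 newly passed and 1 turned. Of 67 named calls, 28 held with each library left out. No paired analysis was possible because the labels number each sample separately and link none of them across the groups. Depth of 3041142 to 10887041 counts limits genes of a few CPM most.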

Other observations

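Families of genes outside the lists, chosen after their values were seen, are given as counts and values with no test of the family. Over all tested genes 0.833% were called higher and 2.36% lower. Of 16 tested semaphorins, guidance molecules of nerve and vessel growth, 14 had a log2 fold change below 0 (median -0.38) and 5 were called lower, namely Sema4c, Sema5a, Sema3b (-0.73, SE 0.28), Sema3d (-0.83, SE 0.36) and Sema3a (-0.90, SE 0.40). All 10 of their plexin and neuropilin receptors were below 0 (median -0.38) with 1 called, Plxna3 (-0.65, SE 0.26). All 4 slit and robo genes were below 0, with Robo2 called (-0.78, SE 0.25), as were all 9 ephrins and Eph receptors, with Ephb2 (-1.11, SE 0.40) and Ephb3 (-0.96, SE 0.45) called. Sema4c, Sema5a and Robo2 were called whichever library was left out, and the other calls of this paragraph were not.

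All 5 lysyl oxidases, which crosslink collagen, were below 0 (median -0.60), with Loxl4 (-0.95, SE 0.32) and Loxl2 called. Of 9 prolyl and lysyl hydroxylases 6 were below 0, with P3h2 (-1.05, SE 0.30) and P3h3 (-0.63, SE 0.19) called, and all 6 bone morphogenetic proteins were below 0 with Bmp5 called (-0.90, SE 0.28). Loxl4, P3h2 and Bmp5 were called whichever library was left out, and Loxl2 and P3h3 were not. In the other direction, 43 of 51 initiation factors (median 0.12), 16 of 17 aminoacyl-tRNA synthetases (median 0.13) and all 8 CCT chaperonin subunits (median 0.20) were above 0, and none was called.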
